A study of Mus musculus with 10 samples.

Results

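Neurofilaments and peripherin are the intermediate filament proteins that fill the axons of large neurons, and 5 genes encode them: Nefl (the light subunit), Nefm (the medium subunit), Nefh (the heavy subunit), Ina (alpha-internexin) and Prph (peripherin). The 5 genes were taken by symbol from the 51912 genes of the count files, and all 5 had counts in every library. Lumbar motor neurons were collected by laser capture as 1 pool of about 50 cells per mouse, with 5 HSA-NRTN mice compared with 5 littermates of wild-type genotype. Each genotype held 3 females and 2 males. In HSA-NRTN mice the human skeletal actin promoter drives neurturin (a GDNF-type growth factor) in skeletal muscle, so the transgene is expressed outside the captured cells and its level there checks no label. Only cells with a visible nucleolus and an area above 200 µm2 were captured, so the values describe large motor neurons. Age and strain background are not given in the labels.

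Neurofilament subunits assemble through a shared alpha-helical rod. The light subunit forms the core of the filament together with alpha-internexin or peripherin, and the long tails of the medium and heavy subunits project from it and carry many phosphorylation sites. Filaments are made in the cell body, move slowly along the axon and help to set its calibre, and motor neurons are among the cells richest in them. Peripherin is found mainly in neurons that project out of the central nervous system, which makes it a usual marker of motor neurons, while alpha-internexin is known for its early expression during neuronal development.

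A window of 45 coding bases in the conserved rod shows the relation between 4 of the genes, Nefl, Nefm, Prph and Ina. It was chosen as the window within single exons with the most identical bases, so it does not show how alike the genes are elsewhere. Nefh was not part of the alignment, and its absence here says nothing about its rod. In the lines that follow, capitals mark the 35 bases that were identical in these 4 genes, read from the GENCODE M21 transcripts on GRCm38.
Nefl: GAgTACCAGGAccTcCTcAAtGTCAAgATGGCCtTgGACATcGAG
Nefm: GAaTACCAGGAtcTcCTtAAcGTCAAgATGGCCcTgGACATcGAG
Prph: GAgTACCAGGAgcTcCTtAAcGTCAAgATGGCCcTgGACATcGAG
Ina: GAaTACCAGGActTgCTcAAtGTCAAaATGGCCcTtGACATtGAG
The Nefl window lies on the plus strand at chr14:68086040-68086084 in exon 2, and the Nefm window on the minus strand at chr14:68122835-68122879, also in exon 2. The Prph window lies on the plus strand at chr15:99057393-99057437 in exon 5 of its longest transcript, and the Ina window on the plus strand at chr19:47021899-47021943 in exon 2. Pairwise, the windows shared 36 bases between Ina and Prph, the fewest, and 43 bases between Nefm and Prph, the most. Outside the overlap of Nefl and Nefm described next, members shared few long stretches. Of the other 9 pairs, only Nefm and Prph held any identical run of 31 bases. They held 5 such runs, counted at every start position, so the runs can overlap.

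The tail of the heavy subunit is a run of repeats around lysine, serine and proline, whose serines are phosphorylated in axons. A stretch of 90 coding bases of Nefh at chr11:4940974-4941063 (exon 4, minus strand) shows the repeat, with 5 of the codon triplets for lysine, serine and proline in capitals.
Nefh: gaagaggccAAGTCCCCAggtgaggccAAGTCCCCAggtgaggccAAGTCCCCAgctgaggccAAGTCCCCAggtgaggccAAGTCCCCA
In frame, the Nefh coding sequence held 51 such triplets, between codons 522 and 889 of 1091 codons, and Nefm held 4. Nefl, Ina and Prph held 0. Of 21767 mouse genes with a coding transcript, 2332 (10.7%) held at least 1 triplet, and 0 others reached the number in Nefh.

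Nefl and Nefm lie next to each other on chromosome 14 and are transcribed toward each other, and in the annotation they overlap. Nefl spans chr14:68083863-68089095 on the plus strand, and Nefm spans chr14:68082590-68124846 on the minus strand. Nefm has 2 annotated transcripts: one of 3334 bases that lies clear of Nefl, and a longer one of 3680 bases whose last exon runs antisense across 1108 of the 3380 exon bases of Nefl, including its start codon. The first 30 coding bases of Nefl, at chr14:68083963-68083992, are therefore also in an annotated Nefm exon, in reverse complement, and the start codon is in capitals.
Nefl: ATGagttcgttcggctacgatccgtacttt
The library kit does not mark strand, so reads from these shared bases cannot be told apart between both genes, and how the authors' counting treated them is not stated. The values of Nefl and Nefm below carry this uncertainty. Nefh (chr11:4938754-4948064, minus strand) shares no exon with another gene. Prph (chr15:99055174-99058978, plus strand) shares none either, and Ina (chr19:47014698-47025327, plus strand) shares 456 bases with Nt5c2 on the opposite strand, a gene with 910 counts over all libraries together.

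**Figure D1:**
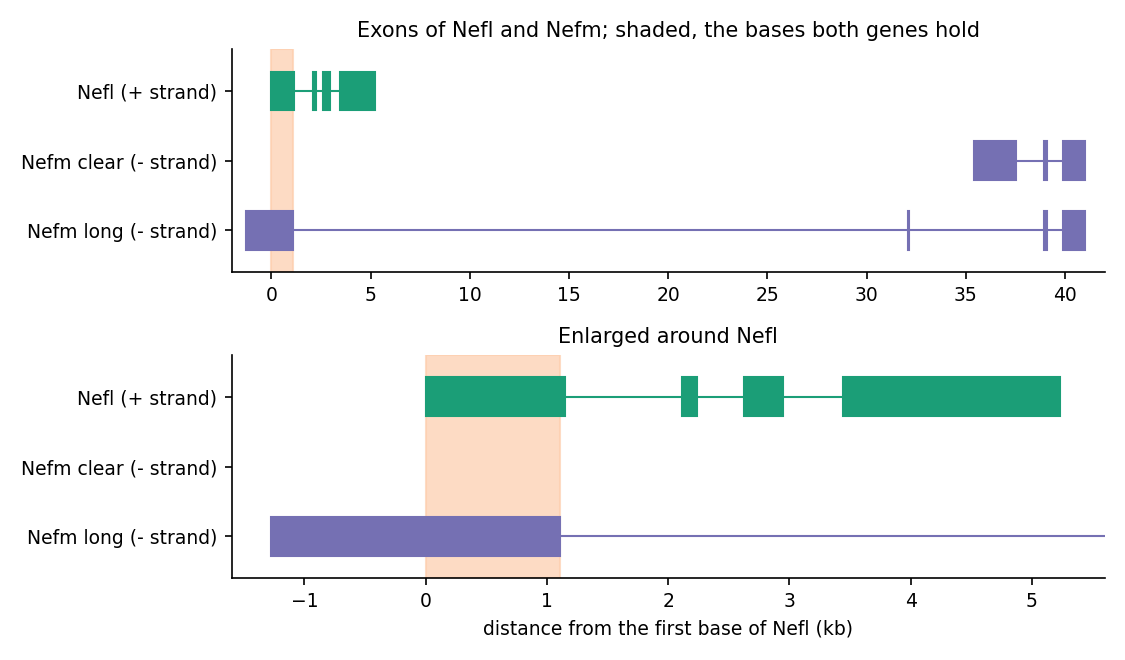
Exons (boxes) of Nefl and of the 2 annotated Nefm transcripts, by distance from the first base of Nefl in kb, with the lower panel enlarged around Nefl. The shaded 1108 bases are held by the first exon of Nefl and by the last exon of the longer Nefm transcript on the opposite strand, while the other Nefm transcript lies clear of them.

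Library depth ran from 1875971 counts on genes in HSA-NRTN replicate 2 to 6641695 in HSA-NRTN replicate 4, and 14090 to 19675 genes had at least 1 count. Levels are given as CPM, counts relative to all counts on genes, with library sizes scaled by TMM. Motor neuron markers were present in all pools: the 7 markers Chat, Slc18a3, Slc5a7, Isl1, Isl2, Mnx1 and Prph, of which the last is also a member of the family, summed to 2806 to 4159.8 CPM in HSA-NRTN and 2126 to 3583 CPM in wild-type pools. The 4 sensory neuron markers, relevant because sensory neurons also make peripherin, summed to at most 6.92 CPM, and Scn10a had 0 counts in every library, which allows up to 1.61 CPM in the shallowest one. HSA-NRTN replicate 2 stood apart. Of its reads 13.5% were counted on genes, against 23.4% to 42.3% in the other 9 libraries. Reads not aligned made up 58.6% of its reads, against 16.3% to 46.1%. Its 6 astrocyte markers summed to 741 CPM against 45.9 to 292 CPM in the other 9 libraries, and its 6 oligodendrocyte markers to 1406 CPM against 199 to 635 CPM. Slc1a2 alone gave 659 CPM of that astrocyte sum.

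The 3 neurofilament subunits were among the most abundant transcripts of these cells. Over the 10 libraries Nefm ranked number 3 of 51912 genes by mean CPM and Nefl number 4, and Nefh ranked number 14. Within single libraries Nefm ranked between 1 and 9. Prph ranked number 161 and Ina number 691, with Ina ranging from 363 to 2243 between libraries. The 5 genes together took 1.80% of the gene counts in the lowest library and 3.94% in the highest (median 3.12%).

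Levels of different genes were compared per kilobase of annotated exon. Nefl was highest at 3653 ± 1099 CPM per kb (SD, n = 10), followed by Nefm at 2477 ± 818, Nefh at 998 ± 213, Prph at 367 ± 95.9 and Ina at 79.0 ± 34.1 CPM per kb. Each gene lay above the next in all 10 libraries, and each neighbouring pair passed an exact two-sided sign-flip permutation test (p = 0.00195 for each of the 4 pairs, adjusted 0.00195, the smallest this design allows). The order of Nefh, Prph and Ina was the same with any of the lengths tried. That of Nefl and Nefm was not: per kilobase of the longest transcript, Nefm lay 1.05-fold above Nefl, in 7 of 10 libraries (exact permutation p = 0.531). With the exon bases clear of other genes, and Nefm limited to its clear transcript, Nefl lay 1.28-fold above Nefm in 9 of 10 libraries (p = 0.00391, exact), a length chosen after the overlap was seen and applied to counts that may still include reads of the shared bases. The order of Nefl and Nefm therefore depends on the Nefm length used, and gene counts do not show which of its transcripts the reads came from.

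In the comparison of genotypes, which asks how neurturin from muscle bears on the motor neurons, 0 of the 5 members passed the test. The background was 1 of 11630 genes called, 0.0086%, so a count of 0 among 5 does not set the family apart from the table as a whole. By unadjusted p, 4.83% of all genes and 0 members lay under 0.05. In 0 members did the genotypes separate completely, against 1.25% of all genes. With DESeq2, 0.8% of genes and 0 members were called. The 3 neurofilament subunits had lower means in HSA-NRTN pools, by estimates of 0.69-fold to 0.82-fold whose intervals all reach 1, and Ina and Prph had means close to or slightly above those of wild-type. Across all genes 51.4% had a negative log2 fold change and the median was -0.015. In pooled cells, fewer cells of a type and less RNA per cell cannot be told apart. Of the 7 motor neuron markers, Prph included, 0 were called and 6 had a positive log2 fold change (median 0.38). Chat, the enzyme that makes acetylcholine, stood at 97.6 to 149.7 CPM in HSA-NRTN and 70.1 to 97.1 CPM in wild-type pools, without overlap (adjusted p = 0.999, edgeR). All 6 oligodendrocyte markers were positive as well (median 0.64), with 0 called, and of the 4 astrocyte markers tested 2 were positive. The sum of the 6 oligodendrocyte markers did not have a higher median in HSA-NRTN pools: it was 360 CPM there and 408 CPM in wild-type pools. Its highest value, 1406 CPM, came from HSA-NRTN replicate 2. The part of these markers in the values of the family was not tested.

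Nefl, the light subunit, stood at 12279, 13976, 9719, 5925 and 13790.4 CPM in HSA-NRTN replicates 1 to 5. In wild-type replicates 1 to 5 it stood at 18332, 15851, 9716, 9125 and 14765 CPM. The groups overlapped: 3 wild-type libraries lay above all HSA-NRTN libraries, and HSA-NRTN replicate 4 lay below all wild-type libraries. The means were 11138 ± 3376 and 13558 ± 3998 CPM (SD, n = 5 each). The log2 fold change was -0.28 (SE 0.27, 95% interval -0.85 to 0.29), and the adjusted p from the quasi-likelihood F test of edgeR was 0.999. The estimate was 0.040 when the number of detected genes was a covariate, -0.13 without HSA-NRTN replicate 4 and -0.15 without wild-type replicate 1.

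Nefm, the medium subunit, had the smallest p of the family. Its levels were 12736, 8710.2, 11875, 6714 and 18243 CPM in HSA-NRTN replicates 1 to 5, and 19193, 19046, 14789, 11695 and 20229.8 CPM in wild-type replicates 1 to 5. HSA-NRTN replicates 2 and 4 lay below every wild-type library, and wild-type replicates 1, 2 and 5 lay above every HSA-NRTN library, with the remaining 5 libraries interleaved. The means were 11656 ± 4407 CPM (SD, n = 5) in HSA-NRTN and 16990.5 ± 3621 CPM (SD, n = 5) in wild-type, a ratio of 0.686 (95% interval 0.465 to 1.01). The log2 fold change of -0.54 (SE 0.26) had an unadjusted p of 0.0563, which placed it number 637 of 11630 genes by p, and adjusted p was 0.999 by the quasi-likelihood F test of edgeR. In the authors' deposited table its log2 fold change was -0.48 with an adjusted p of 0.618. With single libraries left out, the edgeR estimate ran from -0.77 (without HSA-NRTN replicate 5) to -0.40 (without HSA-NRTN replicate 4).

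Nefh, the heavy subunit with the long repeat tail shown above, varied little among wild-type pools and more among HSA-NRTN pools. In wild-type replicates 1 to 5 it stood at 4691, 4704, 4298, 4304 and 4387 CPM. In HSA-NRTN replicates 1 to 5 it stood at 3257, 2113, 3891, 3375 and 4844 CPM. Of these pools 4 (replicates 1 to 4) lay below every wild-type pool, and replicate 5 lay above every one. The coefficient of variation was 4.57% in wild-type pools, where only 5 of 11630 genes had a smaller one and the median gene had 48.0%. In HSA-NRTN pools it was 28.5%, where 24.6% of genes had a smaller one and the median gene had 43.5%. These medians include many scarce genes. Over all 10 libraries Nefh had 21.4%, beside a median of 25.5% for the 200 genes of highest mean CPM. The contrast in spread between the genotypes was singled out after the values were seen and was not tested. The means were 3496 ± 995 and 4477 ± 204 CPM (SD, n = 5 each), and the log2 fold change was -0.36 (SE 0.22, 95% interval -0.82 to 0.10; adjusted p = 0.999, edgeR). The lowest value came from HSA-NRTN replicate 2, the pool with the highest astrocyte and oligodendrocyte marker sums. Without it the log2 fold change was -0.22, and without HSA-NRTN replicate 5, the highest pool, it was -0.51.

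Prph, the peripheral subunit, stood at 1166, 702, 533, 609.7 and 714 CPM in HSA-NRTN replicates 1 to 5 and at 668, 885, 562, 870.1 and 627 CPM in wild-type replicates 1 to 5. HSA-NRTN replicate 1 was the highest of all 10 libraries and the other 4 HSA-NRTN libraries lay between 533 and 714 CPM, so the groups overlapped widely. The means were 745 ± 246.8 and 722 ± 147 CPM (SD, n = 5 each), with a log2 fold change of 0.04 (SE 0.24, 95% interval -0.46 to 0.55; adjusted p = 0.999, edgeR). With HSA-NRTN replicate 1 left out the estimate was -0.17.

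Ina, alpha-internexin, was the scarcest and most variable member. Its levels were 393, 289, 115, 296 and 278 CPM in HSA-NRTN replicates 1 to 5 and 253.3, 290.4, 139, 90.2 and 416 CPM in wild-type replicates 1 to 5, a 4.62-fold range over the 10 libraries. The wild-type group held both the lowest and the highest library, with all HSA-NRTN libraries between them. The means were 274.1 ± 100.2 and 238 ± 129 CPM (SD, n = 5 each), and the log2 fold change was 0.20 (SE 0.38, 95% interval -0.61 to 1.01; adjusted p = 0.999, edgeR).

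**Figure D2:**
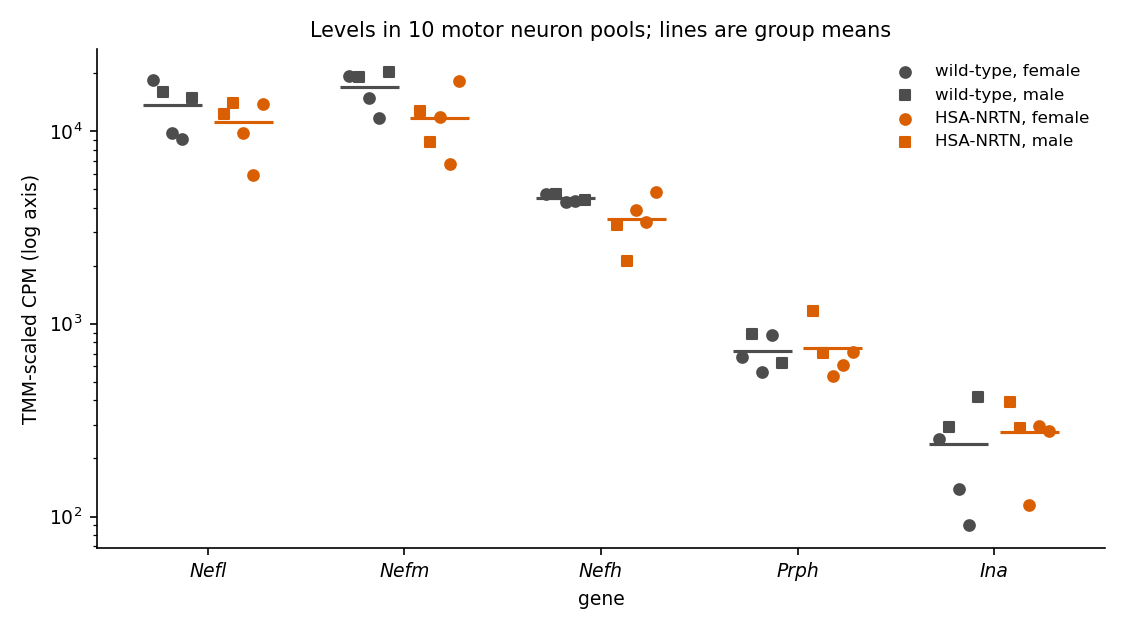
Level of each gene in each library, as TMM-scaled CPM on a log axis, for 5 wild-type and 5 HSA-NRTN pools, with circles for females, squares for males and a line at each group mean. The wild-type points of Nefh lie within 4298 to 4704 CPM while its HSA-NRTN points run from 2113 to 4844 CPM, and in every other gene the groups overlap over a wider range.

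Sex was tested with genotype in the model, over 6 females and 4 males. Here too 0 of the 5 members were called, against 0.0086% of 11630 genes, and 11.2% of all genes had an unadjusted p under 0.05. Ina was the member that did: it stood at 195 ± 90.6 CPM in females and 347 ± 66.9 CPM in males, a log2 fold change of -0.86 for female against male (SE 0.32, 95% interval -1.55 to -0.17; unadjusted p = 0.0177, adjusted p = 0.406, edgeR). The male and female libraries overlapped: a female at 296 CPM stood above the males at 289 and 290.4 CPM. The pools also held markers of interneurons, and their 5 markers differed between libraries. In males they summed to 246.5 and 242.5 CPM (HSA-NRTN replicates 1 and 2) and to 35.1 and 370.0 CPM (wild-type replicates 2 and 5). In females the sums ran from 5.12 to 191.3 CPM. The part of interneuron RNA in the spread of Ina and in its difference by sex was not tested. The estimates for the other members were -0.36 for Nefl, -0.09 for Nefm, 0.27 for Nefh and -0.36 for Prph, each with an interval that includes 0.

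**Figure D3:**
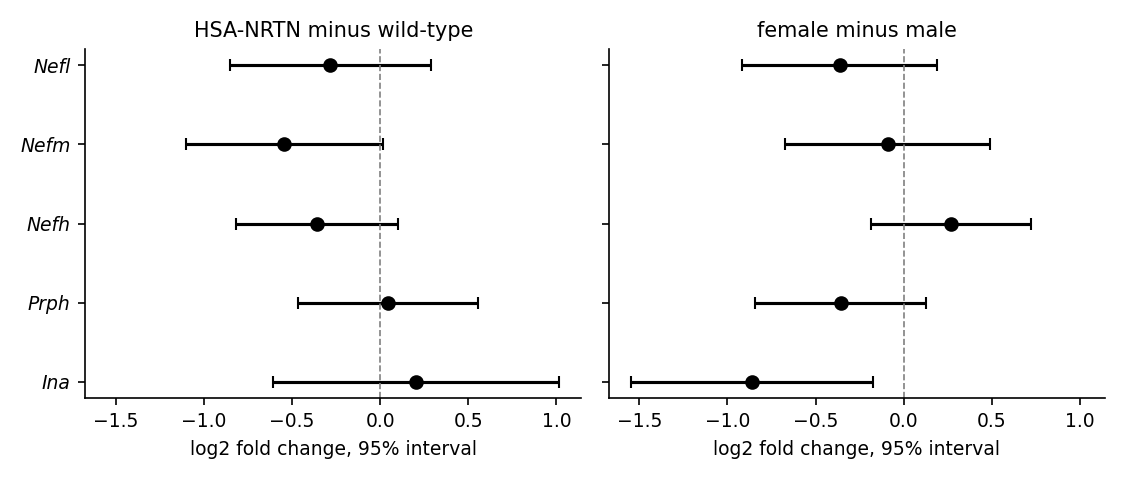
Log2 fold changes of the 5 genes with their 95% intervals from edgeR, for HSA-NRTN minus wild-type on the left and for female minus male on the right, with 5 libraries in each genotype and 6 female and 4 male libraries. Only the interval of Ina by sex, -1.55 to -0.17, does not include 0, and its adjusted p was 0.406.

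Within the sexes, the genotype estimates of Nefm and Nefh were further from 0 in males than in females. For Nefm the log2 fold change was -0.88 in the 4 male libraries and -0.29 in the 6 female libraries. For Nefh the values were -0.77 and -0.11. The difference itself, female effect minus male effect, was 0.56 (SE 0.54) for Nefm and 0.62 (SE 0.40) for Nefh, with adjusted p-values of 0.945 and 0.921 in edgeR's quasi-likelihood F test. Of the 5 members 0 were called for this interaction, as were 0 of all 11630 genes (0%), of which 598 (5.14%) and 0 members had an unadjusted p under 0.05. HSA-NRTN replicate 2, with the raised glial marker sums, is 1 of the 2 HSA-NRTN males. Without it the difference was 0.32 (SE 0.63) for Nefm and 0.35 (SE 0.42) for Nefh. Other single libraries moved it as well: without HSA-NRTN replicate 1, the other male, it was 0.93 for Nefm and 1.03 for Nefh. Without HSA-NRTN replicate 5 it was 0.17 for Nefm, and without HSA-NRTN replicate 4 it was 0.86.

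Ratios between members within a library do not depend on how libraries are scaled. They are ratios of counts, not corrected for gene length. They serve to compare libraries and do not show which subunit had more transcripts. The ratio of Nefl to Nefm counts was 0.964, 1.60, 0.818, 0.882 and 0.756 in HSA-NRTN replicates 1 to 5. In wild-type replicates 1 to 5 it was 0.955, 0.832, 0.657, 0.780 and 0.730. Nefm thus had the higher count in 9 of 10 libraries, the exception being HSA-NRTN replicate 2, which also had the lowest depth and the highest glial marker sums. The means were 1.01 ± 0.344 and 0.791 ± 0.112 (SD, n = 5 each), with a log2 difference of 0.30 (exact two-sided permutation p = 0.183, adjusted over 10 ratios 0.463). Without that library the log2 difference was 0.12.

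The ratio of Nefm to Nefh, both subunits with projecting tails, was 3.91, 4.12, 3.05, 1.99 and 3.77 in HSA-NRTN replicates 1 to 5. In wild-type replicates 1 to 5 it was 4.09, 4.05, 3.44, 2.72 and 4.61. The lowest ratio in each group came from replicate 4, and the groups overlapped, with means of 3.37 ± 0.869 and 3.78 ± 0.726 (SD, n = 5 each; exact permutation p = 0.476). Replicate numbers pair no animals across the groups.

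The ratios of Nefm to the scarcer members had the smallest p-values of the 10. Nefm to Prph was 16.4 ± 6.95 (SD, n = 5) in HSA-NRTN and 24.5 ± 7.29 (SD, n = 5) in wild-type, with 3 HSA-NRTN libraries below every wild-type library. Its log2 difference was -0.61 (exact permutation p = 0.0873, adjusted 0.463). Nefm to Ina was 50.9 ± 33.8 and 85.2 ± 32.5, again with 3 HSA-NRTN libraries below every wild-type library, and its log2 difference was -0.89 (exact permutation p = 0.0952, adjusted 0.463; n = 5 each). None of the 10 ratios passed 0.05 between genotypes before or after adjustment, in a design whose smallest possible p is 0.00794. By sex, 3 ratios had an unadjusted exact permutation p under 0.05 and none passed adjustment over the 10 ratios. Nefh to Ina was higher in females by 1.24 on the log2 scale (p = 0.0190, exact). Nefm to Nefh and Nefl to Nefh were lower in females, with log2 differences of -0.43 (p = 0.0286, exact) and -0.72 (p = 0.0381, exact). The adjusted p was 0.127 for each of the 3.

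**Figure D4:**
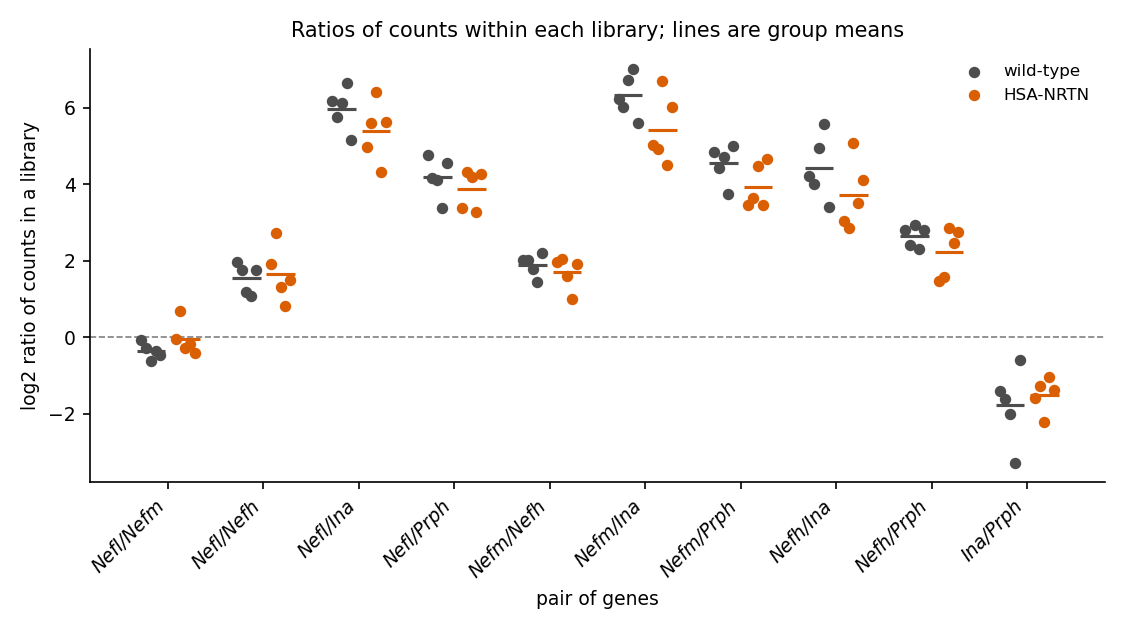
Log2 ratio of the counts of each pair of genes within each library, with wild-type and HSA-NRTN pools in separate colours and a line at each group mean. The groups overlap in all 10 ratios, and 1 HSA-NRTN library lies apart at the top of Nefl to Nefm with a ratio of 1.60.

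Across the 10 libraries, the highest correlations were those of Nefm with Nefl and with Nefh, and differences between pairs were not tested. Pearson's r of log2 CPM was 0.76 for Nefl and Nefm (permutation p = 0.0153, adjusted over 10 pairs 0.130; Spearman's rho 0.75, permutation p = 0.0182, adjusted 0.107). For Nefm and Nefh r was 0.73 (permutation p = 0.0260, adjusted 0.130; rho 0.73, permutation p = 0.0214, adjusted 0.107). For Nefl and Nefh r was 0.19 (permutation p = 0.539) and rho 0.45 (permutation p = 0.192). Of the 10 pairs 0 passed adjustment. Without wild-type replicate 4 and HSA-NRTN replicate 4, which lie farthest from the median of Nefl, r of Nefl and Nefm was 0.48, so that relation rests in part on these libraries. Without HSA-NRTN replicates 2 and 4, r of Nefm and Nefh was 0.68. On deviations from the genotype means the values were 0.75 and 0.59. Nefl and Nefm share annotated exon bases, and the part of these bases in their r was not tested. Nefl was highest, at 18332 CPM, in wild-type replicate 1, which had the fewest genes detected (14090). It was lowest, at 5925 CPM, in HSA-NRTN replicate 4, which had the most (19675). Between these the order was not strict: wild-type replicate 4, with 16137 genes, had 9125 CPM. The part of the number of detected genes in the correlations was not tested. The other 7 pairs, all of which include Ina or Prph, had r between -0.20 and 0.40.

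The genes whose levels ran closest to each member over the 10 libraries were taken from 8508 genes with a mean of at least 10 CPM, as a description of these libraries only. For Nefl they were U2af2 (r = 0.97) and Vamp1 (r = 0.97), and for Nefm they were Nat8l (r = 0.96) and Asb13 (r = 0.93). For Nefh they were Zfp804a (r = 0.96) and Chrm2 (r = 0.95). For Ina they were Wbp4 (r = 0.91) and Slc25a4 (r = 0.90), and for Prph they were Map2k1 and Pkm (both r = 0.87). No member was among the 100 genes closest to another: the nearest was Nefl, at place 121 for Nefm, and Nefh stood at place 167 for Nefm.

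Genes of proteins that carry, anchor, modify or clear neurofilaments did not pass the genotype test either. Of 61 listed genes tested in 8 lists, 0 were called and 0 had an unadjusted p under 0.05, beside 0.0086% and 4.83% of all genes, so 0 called is what the whole table gives. Among 7 other intermediate filament genes tested, the median log2 fold change was -0.00, and the smallest p-values were those of Synm (synemin) at -0.77 (SE 0.37), Gfap at 2.19 (SE 1.10) and Iffo1 at -0.61 (SE 0.33). Gfap, the filament of astrocytes, reached only 17.7 CPM, in HSA-NRTN replicate 2, and Des had 0 counts in all libraries. Among 9 cross-linkers and microtubule-associated proteins the median was -0.02, with Map2, of dendrites, at -0.40 (SE 0.21), Macf1, which links microtubules to actin, at -0.36 (SE 0.20) and Map4 at 0.34 (SE 0.30).

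The 9 motor genes had a median of -0.12, and 7 of them were negative, beside 51.4% of all genes. Dync1i1, an intermediate chain of dynein, stood at -0.37 (SE 0.22), Kif5a, a neuronal kinesin heavy chain, at -0.29 (SE 0.20) and Klc2, a kinesin light chain, at 0.42 (SE 0.51). The 10 kinases and activators tested, among them those that phosphorylate neurofilament tails, had a median of -0.04, with Mapk10 at -0.32 (SE 0.22) and Mapk9 at -0.17 (SE 0.20). The 8 turnover and chaperone genes had a median of 0.22. Trim2, a ubiquitin ligase that binds the light subunit, stood at -0.43 (SE 0.22), Uchl1, a deubiquitinase, at 0.48 (SE 0.33) and Hspb8, a small heat shock protein, at 0.42 (SE 0.29). The sum over the turnover list was highest in HSA-NRTN replicate 2 (6791 CPM), the others running from 2983 to 4328 CPM. Uchl1 alone gave 4876 CPM of the sum in that replicate.

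The 8 tubulins tested had a median of -0.04, with Tubb4b at -0.41 (SE 0.34), Tubb3 at 0.28 (SE 0.25) and Tuba1b at -0.23 (SE 0.26). The 7 genes of the membrane skeleton had a median of -0.11, and 6 of them were negative, beside 51.4% of all genes. The positive one was Ank3, which anchors proteins at the axon initial segment, at 0.41 (SE 0.23). Sptan1, a spectrin, stood at -0.34 (SE 0.25) and Sptbn1 at -0.16 (SE 0.22). Of the 3 RNA-binding proteins tested, Hnrnpk stood at 0.28 (SE 0.26) and Tardbp at -0.14 (SE 0.25). All these log2 fold changes are HSA-NRTN minus wild-type, with adjusted p-values of 0.999 in edgeR's quasi-likelihood F test.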

How the data were processed

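Each library holds the polyadenylated RNA of 1 pool of motor neurons, amplified with Smart-seq2 and fragmented with Tn5, per the labels' protocols. Per the submitters' processing notes, the authors used STAR 2.5.0a for alignment to GRCm38.p6 and HTSeq for the raw gene counts. The annotation release, counting mode and strand setting were not given in the sources used here. Deposited counts cover 51912 genes, and 92 ERCC spike-ins and 5 tally entries were left out. The tally of reads in no feature held 5.69% to 12.1% of all reads per library, and that of ambiguous reads 0.737% to 2.12%. Larger were the tallies of reads not aligned, 16.3% to 58.6%, and of reads without a unique alignment, 15.3% to 32.5%. A deposited table holds a signal that the authors made by dividing counts by 1 size factor per library. The authors' deposited comparison gives log2 fold changes, p-values and, as a score, the Wald statistic of DESeq2. No molecular identifiers were used, so the limit given for a count of 0, based on 3 counts, covers counting error only.

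Counts were analysed in R 4.3.3 with edgeR 4.0.16: filterByExpr kept 11630 genes, libraries were scaled by TMM, and the quasi-likelihood F test was adjusted by Benjamini-Hochberg over all of them and called under 0.05. Genotype was fitted with no covariate, sex with genotype, and the interaction with both. Ratios, level order and correlations (100000 resamples) were tested over libraries by permutation. Alternatives included DESeq2 1.42.0 and limma 3.58.1. The test was checked on simulated counts of 11630 genes, 200 of them, drawn at random, changed. It called 71 genes, 2 of them unchanged ones. It recovered 3.70% of the 2-fold changes and 73.4% of the 8-fold changes, so a gene not called can still differ 2-fold. These rates do not describe the members, whose biological coefficient of variation in edgeR was 0.274 to 0.433, against a median of 0.527 for all genes. The intervals of the genotype ratio were 0.553 to 1.22 for Nefl, 0.568 to 1.07 for Nefh and 0.724 to 1.47 for Prph. These do not reach a 2-fold change, while those of Nefm (0.465 to 1.01) and Ina (0.657 to 2.02) do. The 5 members, the other lists and the tests were chosen with earlier results of these data known. Named were the members, up to 3 genes of smallest p per other list, the 2 genes closest to each member by r, and overlapping genes; other names were chosen after their values were seen. A few items that this rule would name are not reported here. Coordinates, lengths and sequences are those of GENCODE M21 on GRCm38. Replicate numbers follow record order.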

Additional observations from a re-analysis of the deposited data

Results flagged for a closer look

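In 30 groups of 5 values (5 levels and 10 ratios in each genotype), 2 held a library far from the others. Far meant a gap to the nearest value above 0.71 of the range, and chance gives about 1 in 20 groups. The rule was applied to CPM and to plain ratios, not to their log2 values. The ratio of Nefl to Nefm counts in HSA-NRTN replicate 2 was 1.60 while the other 4 HSA-NRTN libraries lay between 0.756 and 0.964. That library also had the lowest depth and the highest sums of astrocyte and oligodendrocyte markers, whose part in the ratio was not tested. The Prph level in HSA-NRTN replicate 1 was 1166 CPM, and the other 4 HSA-NRTN libraries lay between 533 and 714 CPM.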

How the results depend on the processing

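No member was called for genotype, sex or their interaction under any alternative that was run. The log2 fold changes of Nefm (-0.88 to -0.29) and Nefh (-0.77 to -0.11) between genotypes kept their sign throughout. Those of Nefl (-0.28 in the main fit), Ina (0.20) and Prph (0.04) did not. Nefl was 0.040 when detected genes were a covariate, and Ina was -0.059 in males alone. Prph was -0.16 in females alone, -0.0022 with limma voom and -0.0072 when the 2 runs of animal numbers were a covariate. With each library left out in turn, Nefl ran from -0.40 to -0.13, Ina from -0.0074 to 0.50 and Prph from -0.17 to 0.14. By sex Nefm ran from -0.29 to 0.018, and the interaction of Nefl from -0.43 to 0.31. The log2 ratio difference of Nefl to Nefh ran from -0.16 to 0.32 and that of Ina to Prph from -0.091 to 0.58. The cause of these changes was not tested. Per kilobase of the longest transcript the mean log2 ratio of Nefl to Nefm turned to -0.077. The r of Nefm and Prph was -0.035 with total gene counts, and that of Nefl and Nefh -0.0051 on deviations from genotype means.

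Over the whole table, 1 gene was called between genotypes, against 126 with DESeq2, 81 with no filter, 10 with detected genes as covariate, 5 with sex as a covariate, 3 with limma voom, 0 with the runs of animal numbers, 0 in females alone, 0 in males alone, and 0 to 13 with each library left out (0 without wild-type replicate 2, 13 without HSA-NRTN replicate 3). None of these calls was a member. No paired analysis was possible because the labels give the groups no shared replicate numbers. With 5 pools a group, the 95% interval of each member's genotype ratio includes 1, and the widest, that of Ina, runs from 0.657 to 2.02.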
